A study of Mus musculus with 3 samples.

Results

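Oxidative phosphorylation turns the electrons released by nutrient oxidation into ATP. Complex I (NADH dehydrogenase) and complex II (succinate dehydrogenase, which is also an enzyme of the citric acid cycle) pass electrons to ubiquinone, complex III passes them on to cytochrome c, complex IV (cytochrome c oxidase) hands them to oxygen, and complex V (ATP synthase) uses the proton gradient that complexes I, III and IV build. Most subunits are encoded in the nucleus, a small set of core subunits is encoded by mitochondrial DNA (gene symbols starting mt-), and complex II alone has no mitochondrial subunit. In skin, quiescent hair follicle stem cells are known for relying largely on glycolysis, whereas the sebaceous gland makes lipid in bulk.

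The genes described here are the 97 nuclear genes whose symbols start with Nduf, Uqcr, Atp5, Cox4, Cox5, Cox6, Cox7, Cox8 or Sdh, pseudogenes left out, and the 13 mt- protein genes, 110 of the 32285 genes in the count matrices. By symbol the nuclear set held 38 complex I genes, 8 complex I assembly factors (Ndufaf), 4 complex II subunits, 4 complex II assembly factors (Sdhaf), 8 complex III, 18 complex IV and 17 complex V genes. Ndufa4, now assigned to complex IV, and its relative Ndufa4l2 were counted with complex I in every count and sum here, as their symbols read. The symbols chose the members, and no measured value was used. Of the nuclear members, 94 passed the filter on low counts, as did all 13 mt- genes. The 3 that did not pass were Cox6a2, Cox7b2 and Cox8c, all complex IV isoforms known from other tissues.

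The data are droplet-based single-cell RNA-seq of wildtype, untreated mouse back skin, with 1 library each at postnatal day 38 (P38, male), 6 months (female) and 12 months (male), from Krt14-H2BGFP mice, whose keratin 14 promoter drives a green histone reporter in epidermal cells. At P38 cells were sorted for the reporter, while the other libraries also held dermal and immune cells. The follicles were in synchronized catagen at P38, mostly in anagen at 6 months, and in mixed telogen and anagen at 12 months. Each age is 1 library, so age, sex, hair cycle stage, sorting, sequencing depth and the version of the counting software cannot be told apart, and no test between ages was possible. Other ages and assays of the series were not analysed here.

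After the filters of the study's methods (more than 200 and fewer than 5000 detected genes, under 15% of UMIs from mt- genes), 2109, 3502 and 3240 cells were kept at P38, 6 months and 12 months, with median depths of 16170, 1019 and 11438 UMIs per cell. Classes were set by marker genes that include no member, and are written as "-like". A cell joined the class with its highest mean marker score if that score reached 0.5 with 3 markers detected; 1740, 2084 and 2261 cells did so, of which 96, 53 and 100 lay within 0.1 of that level. The 8 epithelial classes with at least 20 cells in every library were compared: basal and suprabasal cells of the interfollicular epidermis (IFE), upper hair follicle (UpHF), sebaceous gland (SG), hair follicle stem cells (HF-SC), the inner bulge layer (Niche), hair germ (HG) and Proliferating cells. Each had at least 1 of its own markers among its 10 leading genes by fold, from 1 in IFE basal-like and HG-like cells to 6 in Proliferating-like cells, and HF-SC-like cells also had 1 Niche marker (Tgm5) there. Niche-like cells carried HF-SC marker scores of 0.72, 1.05 and 1.42 (medians) beside their own of 1.54, 2.49 and 2.40. HG-like cells had own scores of 1.17, 1.36 and 1.05. Their next highest score was that of HF-SC at P38 (0.54), migratory Niche cells at 6 months (0.66) and upper follicle stem cells at 12 months (0.41).

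The 6-month and 12-month libraries shared 136 cell barcodes, against 5 and 2 between P38 and each of them. In SG-like cells 39 of 100 cells at 6 months and 43 of 59 at 12 months carried such a barcode, but these cells gave only 7.58% and 8.77% of the class's UMIs. The median SG-like cell held 22005, 627 and 661 UMIs at P38, 6 months and 12 months. Without shared barcodes, and with classes of at least 10 cells kept, the number of members called in SG-like cells was 79 in place of 77, in Niche-like cells 46 in place of 52, and in HF-SC-like cells 22 in place of 21. Of the 74 calls of named genes, 10 were lost and none changed direction.

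The promoters of these genes are shown first because 76 of the 94 members tested rose in SG-like cells and 52 fell in Niche-like cells, though few were called in the interfollicular epidermis. RefSeq promoters (GRCm38.p6, 250 bases before to 50 after the start) matched 79 nuclear members. Searched on both strands, the letters GCGCATG (the core of the site of NRF1, a regulator of nuclear respiratory genes) occurred in 15 of them (19%, against 4.04% of all 27025 promoters), CCGGAAG (bound by ETS factors such as GABPA) in 21 (26.6%, against 9.12%) and AAGATGG (YY1) in 10 (12.7%, against 6.48%). At least 1 of the 3 was found in 38 members (48.1%, against 17.9%). Of the members raised in SG-like cells, 10, 15 and 10 of 62 held the NRF1, ETS and YY1 letters (16.1%, 24.2% and 16.1%), shares within 4 percentage points of those over all members. Such a match describes the letters and is not a binding site. Capitals mark the matches in the promoters of 4 genes on which the results turn, written 5′ to 3′ along the gene. Sdhb, the complex II subunit called in the most classes (chr4:140961021-140961320, + strand), holds an NRF1 and an ETS match. Ndufb7, of complex I, was called in SG-like, Niche-like and HF-SC-like cells (chr8:83566508-83566807, + strand) and holds an ETS match. Ndufab1, the called member with the largest rise in SG-like cells (chr7:122101799-122102098, - strand), and Ndufa4, which was called in 5 classes (chr6:11907401-11907700, - strand), hold none of these letters.
Sdhb: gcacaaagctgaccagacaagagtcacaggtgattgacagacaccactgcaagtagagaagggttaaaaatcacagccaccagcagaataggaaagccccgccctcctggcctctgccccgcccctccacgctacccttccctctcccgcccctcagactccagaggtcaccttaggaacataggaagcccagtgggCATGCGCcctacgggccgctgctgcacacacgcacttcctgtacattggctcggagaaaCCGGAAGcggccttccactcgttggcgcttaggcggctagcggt
Ndufb7: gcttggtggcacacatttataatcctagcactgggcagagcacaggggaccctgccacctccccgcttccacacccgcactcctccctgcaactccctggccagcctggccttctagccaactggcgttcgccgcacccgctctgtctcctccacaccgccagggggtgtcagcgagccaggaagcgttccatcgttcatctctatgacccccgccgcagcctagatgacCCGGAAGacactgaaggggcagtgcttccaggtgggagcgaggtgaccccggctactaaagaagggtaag
Ndufab1: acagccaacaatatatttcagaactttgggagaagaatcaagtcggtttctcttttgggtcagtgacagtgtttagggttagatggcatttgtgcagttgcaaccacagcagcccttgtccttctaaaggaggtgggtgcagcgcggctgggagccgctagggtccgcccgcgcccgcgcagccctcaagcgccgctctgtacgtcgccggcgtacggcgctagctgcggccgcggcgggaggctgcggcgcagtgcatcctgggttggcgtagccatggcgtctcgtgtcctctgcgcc
Ndufa4: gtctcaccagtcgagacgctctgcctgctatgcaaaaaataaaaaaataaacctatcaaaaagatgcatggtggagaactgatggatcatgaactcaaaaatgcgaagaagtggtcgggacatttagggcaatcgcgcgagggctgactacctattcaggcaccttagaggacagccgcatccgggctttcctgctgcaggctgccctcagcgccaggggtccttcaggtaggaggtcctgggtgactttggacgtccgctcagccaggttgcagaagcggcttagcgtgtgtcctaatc

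Summed over all nuclear members, SG-like cells had the highest level in every library and Proliferating-like cells the next highest. UMIs were summed per class and library and scaled to counts per 1000000 of that sum (CPM), so a level is a share of the class's mRNA and not an amount per cell. Nuclear members took 38993, 33557 and 43609 CPM in SG-like cells at P38, 6 months and 12 months, and 26118, 25814 and 26451 CPM in Proliferating-like cells. Niche-like cells held 14406, 16059.7 and 17469 CPM and HF-SC-like cells 14734, 17745 and 17959 CPM. Niche-like cells were lowest of the 8 classes at P38 and 12 months, while at 6 months IFE suprabasal-like cells were lowest, at 15665 CPM. The remaining classes lay between 14548 and 21562 CPM for UpHF-like, IFE basal-like and HG-like cells. The highest class exceeded the lowest 2.71-fold, 2.14-fold and 2.50-fold in the 3 libraries.

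Against the mean log2 level of the other 7 classes in the same library, SG-like cells stood 1.10, 0.82 and 1.10 higher on the log2 scale (mean 1.01 ± 0.16 SD, n = 3 libraries; two-sided p = 0.25 by exact permutation of the signs, the lowest value possible here). Proliferating-like cells stood 0.44, 0.39 and 0.28 higher (mean 0.37 ± 0.08 SD), above the other classes in 3 of 3 libraries. Niche-like cells differed by -0.55, -0.39 and -0.40 and HF-SC-like cells by -0.51, -0.23 and -0.36, below the other classes in 3 of 3 libraries. HG-like cells differed by -0.53, -0.002 and -0.12, a gap present at P38 and near 0 at 6 months. IFE suprabasal-like (0.071, -0.43 and -0.23) and UpHF-like cells (0.013, 0.094 and -0.11) lay on both sides of the others. Over 80 such comparisons (8 classes, the nuclear set, 7 groups by complex, the mt- genes and the balance), 53 had 1 direction in all 3 libraries, and no Benjamini-Hochberg adjusted p from these exact tests was under 0.377.

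The mt- genes followed another order. They took 80609.6, 70195 and 100150 CPM in SG-like cells, again the most, and 46572, 31301 and 52159 CPM in IFE suprabasal-like cells, the least at P38 and 6 months. Niche-like cells, low in nuclear members, held 55879, 58915 and 79619 CPM of mt- RNA and were second highest at 6 and 12 months. The nuclear-to-mitochondrial balance, the number of nuclear member UMIs per 100 mt- UMIs, was therefore lowest in Niche-like cells in every library, at 25.8, 27.3 and 21.9, followed by HF-SC-like cells at 26.2, 34.3 and 29.6 and HG-like cells at 28.5, 42.3 and 33. Those 3 classes of the lower follicle kept this order at all ages. In SG-like cells the balance was 48.4, 47.8 and 43.5, and in Proliferating-like cells 44.6, 47.9 and 44. On the log2 scale the balance of Niche-like cells differed from the mean of the others by -0.57, -0.73 and -0.76 (mean -0.69 ± 0.10 SD, n = 3, exact permutation p = 0.25) and that of HF-SC-like cells by -0.55, -0.35 and -0.27. In IFE basal-like cells it was higher by 0.21, 0.19 and 0.20, with the smallest spread of any class, and by 0.15, 0.091 and 0.16 with Ndufa4l2 left out of the sums. The filter at 15% of mt- UMIs bounds the mt- values, and it removed 168, 825 and 2048 barcodes at P38, 6 months and 12 months.

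**Figure D1:**
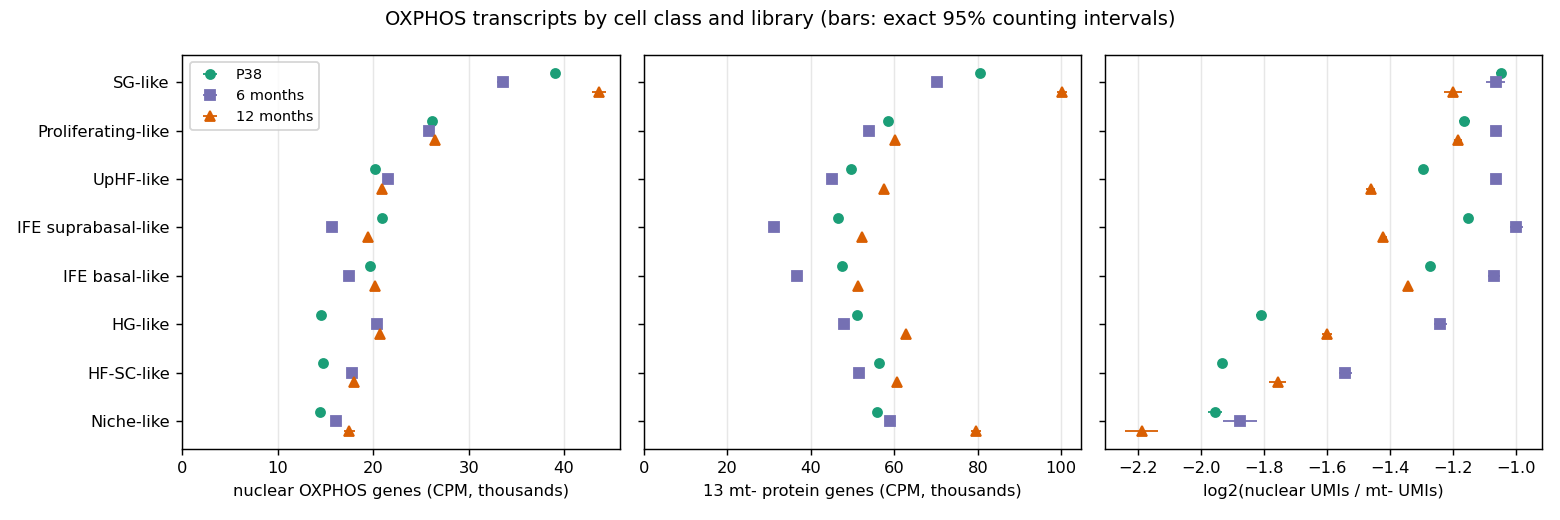
Level of the nuclear members and of the mt- protein genes (CPM divided by 1000) and the balance as log2 of nuclear over mt- UMIs, by class, 1 point per library with exact 95% counting intervals. SG-like cells are highest in both levels in every library, and Niche-like and HF-SC-like cells have the lowest balance.

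Gene by gene, each class was set against the equal-weight mean of the other 7 over the 3 libraries with edgeR, and a gene was called at an adjusted p under 0.05 over all 14255 genes tested. SG-like cells, the lipid-producing gland lineage, raised 76 of the 94 nuclear members and lowered 1, where 11.0% of all genes were raised and 15.0% lowered. The median log2 difference of the members was 0.93, against -0.26 over all genes. Members of every complex rose: 35 of 38 complex I genes rose, 4 of 8 of its assembly factors, 3 of 4 complex II subunits, 7 of 8 in complex III, 11 of 15 tested in complex IV and 16 of 17 in complex V. None of the 4 complex II assembly factors was called. With Ndufa4 and Ndufa4l2 counted with complex IV, 34 of 36 complex I and 12 of 17 complex IV genes rose. The all-gene median shifted by the scaling, to -0.14 with RLE size factors and 0.035 with DESeq2, where the members' median was 1.08 and 1.10. The members' median thus stood 1.19, 1.22 and 1.07 above that of all genes under the 3 scalings.

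Ndufab1, the mitochondrial acyl carrier protein that serves both complex I and mitochondrial fatty acid synthesis, had the largest difference of the called members, with 371, 335 and 514 CPM at P38, 6 months and 12 months against 94.6, 109 and 110.4 CPM as the mean of the other classes (log2 difference 1.88 ± 0.15 SE, adjusted p = 2.93e-11). Ndufb7, an accessory subunit of the membrane arm of complex I, held 223, 176 and 343 CPM against 56.3, 58.6 and 90.4 (log2 difference 1.78 ± 0.19 SE, adjusted p = 1.41e-08). Uqcrq, a small subunit of complex III, held 617, 992 and 1001 CPM against 242, 301 and 294 (log2 difference 1.51 ± 0.14 SE, adjusted p = 1.69e-09). For all 3 genes every SG-like value lay above the mean of the other classes in its library, and each kept its call without any 1 library. Ndufa4, named for complex I and now assigned to complex IV, reached 573, 506 and 683 CPM against 191, 282 and 230.5 (log2 difference 1.34 ± 0.21 SE, adjusted p = 1.10e-05). The complex IV subunits Cox8a, Cox6a1, Cox6b1, Cox4i1 and Cox7a2 rose by log2 1.08, 1.04, 0.84, 0.82 and 0.39, and the c-ring genes of ATP synthase, Atp5g1 and Atp5g3, by 1.17 and 1.23. Of these, only Cox7a2 lost its call in a leave-one-out fit (adjusted p = 0.181 without P38).

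Of the 13 mt- genes, 11 rose in SG-like cells, with a median log2 difference of 0.49, the largest in mt-Nd6 (0.82, adjusted p = 0.00354) and mt-Cytb (0.80, adjusted p = 1.01e-05). Of the 11, 7 kept their call with any library left out, mt-Nd6 (0.57, adjusted p = 0.134) and mt-Nd2 lost it without P38, and mt-Co1 and mt-Nd4l lost it in 2 of 3 fits. mt-Nd3 (0.37, adjusted p = 0.0588) and mt-Atp8 (0.27, adjusted p = 0.319) were not called. Reads from the stretches where mt-Atp8 overlaps mt-Atp6, and mt-Nd4l overlaps mt-Nd4, cannot be assigned with certainty.

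A single member fell in SG-like cells. Ndufa4l2, a relative of Ndufa4 known to be induced by low oxygen, had 40.5, 16.5 and 0 CPM against 429.9, 425 and 285 (log2 difference -2.95 ± 0.68 SE, adjusted p = 0.00154). That mean came mostly from the IFE classes (1058 CPM in IFE basal-like cells at P38). HF-SC-like cells held 39.8 CPM at P38 and Niche-like cells 0 UMIs at 12 months, so low values were not particular to SG-like cells. Cox6b2, known as the testis isoform of Cox6b, was called as raised from few UMIs (36, 5 and 1), with 26.5, 13.7 and 3.12 CPM against 7.3, 7.27 and 16.3, so that it lay above the other classes at P38 and 6 months and below them at 12 months, and its call was lost without P38 (log2 0.58, adjusted p = 0.787 without the P38 library). The number of members called in SG-like cells without P38, 6 months or 12 months was 69, 76 and 78.

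**Figure D2:**
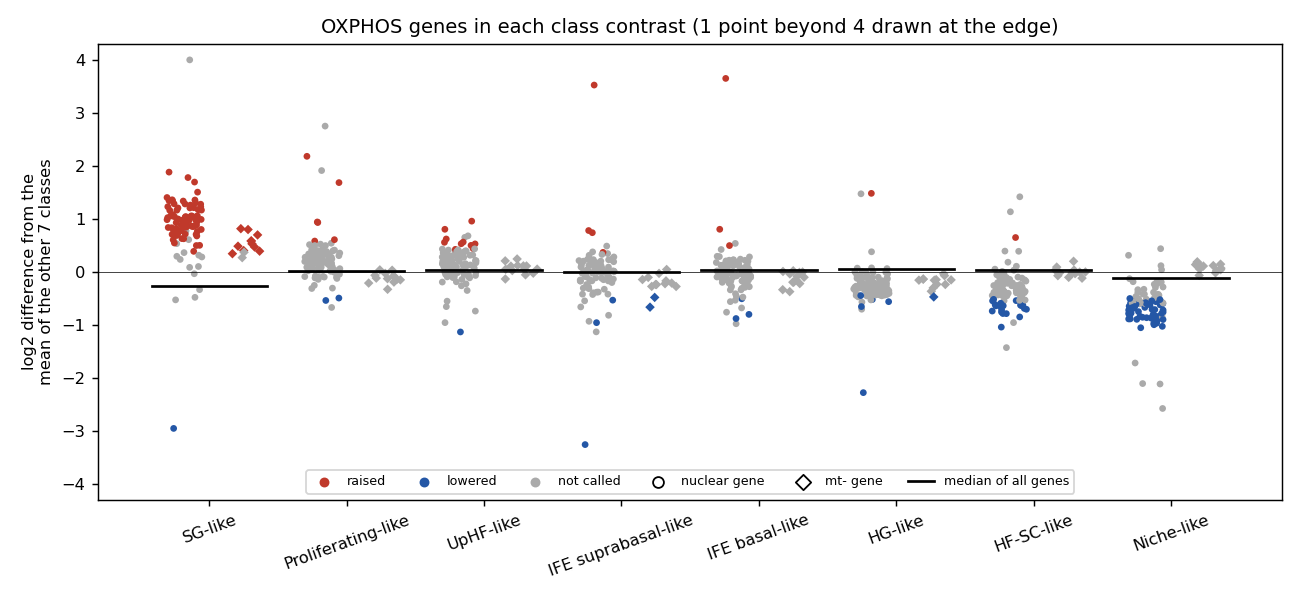
Log2 difference of each nuclear and mt- member in each class against the mean of the other 7 classes, 1 point per gene, with called genes marked and the median over all 14255 genes tested shown. The SG-like members sit above the other classes with a median of 0.93, the Niche-like and HF-SC-like nuclear members below 0 at -0.60 and -0.34, and 1 point beyond 4 is drawn at the edge.

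Niche-like cells, the keratin 6-positive inner layer of the bulge, known to regulate the stem cells, showed the opposite: 52 of 94 nuclear members fell and 0 rose (all genes: 2.60% lowered, 4.73% raised). The members' median was -0.60, against -0.11 over all genes. The lowered members were 26 of 38 in complex I, 5 of 8 in complex III, 8 of 15 in complex IV, 11 of 17 in complex V, 1 complex II subunit and 1 complex I assembly factor. With Ndufa4 and Ndufa4l2 counted with complex IV these were 25 of 36 for complex I and 9 of 17 for complex IV. No mt- gene was called, and 11 of the 13 had positive differences (median 0.11); edgeR gave 0 of 13 at an unadjusted p under 0.05 as well.

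Cox5b, a nuclear subunit of complex IV, had 168, 259 and 171 CPM in Niche-like cells at P38, 6 months and 12 months against 336, 405 and 381 CPM in the others (log2 difference -0.97 ± 0.18 SE, adjusted p = 7.72e-04), and was below them in 3 of 3 libraries and with any library left out. Atp5g1, 1 of 3 genes for the same c-ring protein, had 128, 180.4 and 226 CPM against 299, 280.3 and 439 (log2 difference -1.03 ± 0.22 SE, adjusted p = 0.00264). Ndufa3, an accessory subunit of complex I, had 76.8, 111 and 45.1 CPM against 166, 139.7 and 147 (log2 difference -1.05 ± 0.22 SE, adjusted p = 0.00268). Ndufb7 had 39, 13.9 and 85.3 CPM against 82.6, 81.8 and 127 (log2 difference -0.996 ± 0.26 SE, adjusted p = 0.0151). All 4 lay below the mean of the other classes in each library, though Ndufb7 at 6 months rested on 3 UMIs and Ndufa3 at 12 months on 9. Of the 10 genes named for this class only Cox5b kept its call in all 3 leave-one-out fits, while Ndufb7, Cox6b1, Cox4i1 and Cox7a2 kept it in none. Ndufa4 and the Cox genes Cox6a1, Cox6b1, Cox7a2 and Cox4i1 fell by log2 0.97, 0.72, 0.67, 0.59 and 0.56, and Atp5g3 by 0.93. The class held only 120, 24 and 24 cells, and the count of calls was 4, 20 and 8 without P38, 6 months and 12 months, all in the same direction. With SG-like cells left out of the comparison it was 23, and with cells of 5000 or more genes kept 7.

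HF-SC-like cells, the outer bulge stem cells, lowered 20 nuclear members and raised 1 (all genes: 3.50% lowered, 11.3% raised), with a median of -0.34 against 0.042 over all genes. With SG-like cells left out of the comparison the median was -0.19, and after thinning each cell to 1000 UMIs, which also leaves them out, -0.14. The lowered members were 8 of complex I, 3 of complex III, 4 of complex IV and 5 of complex V, and none of complex II. Ndufa4 had 113, 160.0 and 118 CPM at P38, 6 months and 12 months against 257, 331 and 311 CPM (log2 difference -1.04 ± 0.25 SE, adjusted p = 0.00396). Cox5a, a complex IV subunit, had 156, 185 and 138 CPM against 278, 334 and 299.7 (log2 difference -0.85 ± 0.20 SE, adjusted p = 0.00395), and Cox7c, a further one, 356, 375 and 329 CPM against 655, 565 and 697 (log2 difference -0.79 ± 0.17 SE, adjusted p = 0.002). These 3 genes were lower than the mean of the others at every age. Cox7c kept its call with any library left out, whereas Ndufa4 and Cox5a lost theirs without 12 months (adjusted p = 0.085 and 0.0545). Ndufb7 (-0.79, adjusted p = 0.0148) and Cox6a1 (-0.76, adjusted p = 0.00363) were also lowered, and both lost the call without 12 months, Ndufb7 also without P38 (adjusted p = 0.251).

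The member that rose in HF-SC-like cells was Ndufa11, an accessory subunit of the complex I membrane arm, at 306, 339 and 402 CPM against 198, 206 and 277 (log2 difference 0.65 ± 0.16 SE, adjusted p = 0.00508; adjusted p = 0.157 without the P38 library). No mt- gene was called in HF-SC-like cells (0 of 13 at an unadjusted p under 0.05 in edgeR), and their median difference was -0.014. The count of nuclear calls was 8, 20 and 11 without P38, 6 months and 12 months. It was 43 when cells with markers of a second class were set aside, a setting that also drops Niche-like cells from the classes compared.

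HG-like cells are named for the progenitors below the bulge, and the class with their next highest marker score differed between libraries. They had 5 members lowered and 1 raised (all genes: 2.87% lowered, 9.87% raised), though 87 of 94 differences were negative (median -0.28, all genes 0.048). The median was -0.14 without P38 and -0.16 with SG-like cells left out of the comparison. Ndufa4l2 was at 27.7, 48.8 and 27.5 CPM against 432, 419.9 and 281 (log2 difference -2.28 ± 0.60 SE, adjusted p = 0.00931; adjusted p = 0.185 without the P38 library). Here too the mean of the others came mostly from the IFE classes. Uqcrfs1, the Rieske iron-sulfur protein of complex III (-0.65, adjusted p = 0.0207), Atp5d of the ATP synthase stalk (-0.56, adjusted p = 0.00548) and Ndufa9 of complex I (-0.52, adjusted p = 0.0445) were lower, and mt-Nd5 was the single mt- gene called (-0.47, adjusted p = 0.0353). Cox6b2 was higher, with 7.42, 13.2 and 34.2 CPM against 10, 7.34 and 11.9 (log2 difference 1.48 ± 0.42 SE, adjusted p = 0.0174; adjusted p = 0.381 without the 12 months library). Calls in this class were few and numbered 1, 4 and 3 without P38, 6 months and 12 months, and none of the 6 named genes kept its call in all 3 of these fits.

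Proliferating-like cells, gated on cell cycle genes, raised 6 nuclear members and lowered 2 (all genes: 11.1% raised, 4.64% lowered), and 75 of 94 differences were positive (median 0.21, all genes 0.02). Cox6b2 had 29.2, 17 and 37.1 CPM against 6.92, 6.81 and 11.5 (log2 difference 2.18 ± 0.39 SE, adjusted p = 1.43e-04) and kept its call with any library left out. Ndufaf2 and Ndufaf6, both complex I assembly factors, rose by log2 0.93 (adjusted p = 0.00391) and 0.94 (adjusted p = 0.0352). Ndufa4l2 was raised (1.69, adjusted p = 0.00705) at 562, 148 and 435 CPM; the next highest marker score of these cells was that of IFE basal cells at P38 and 12 months (0.51 and 0.25). Cox7a2l, which helps to join complexes III and IV into supercomplexes (-0.54, adjusted p = 0.0383), and Ndufa6 of complex I (-0.49, adjusted p = 0.0243) fell. The calls numbered 3, 4 and 3 without P38, 6 months and 12 months, and 35 (33 raised) once SG-like cells were left out of the mean they were set against. Of these calls only that of Cox6b2 held in all 3 leave-one-out fits.

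UpHF-like cells, the differentiated cells of the upper follicle, raised 10 nuclear members and lowered 1, a share close to that of all genes for the raised ones (13.7% raised, 4.28% lowered). Sdhb, the iron-sulfur subunit of complex II, led them with 267, 131 and 213 CPM at P38, 6 months and 12 months against 136, 119.6 and 131 CPM (log2 difference 0.96 ± 0.17 SE, adjusted p = 8.68e-05), called with any library left out. Ndufa4 had 310.1, 364 and 341 CPM against 229, 302 and 279 (log2 difference 0.80 ± 0.21 SE, adjusted p = 0.00692; adjusted p = 0.0624 without P38 and 0.0969 without 12 months). Uqcr10 of complex III (0.62) and the complex IV genes Cox6b1, Cox8a and Cox7a2 (0.56, 0.53 and 0.44) also rose, but without the 6-month library these 4 genes stood at 0.26, 0.34, 0.36 and 0.19 (adjusted p from 0.18 to 0.571). The gene that fell was Sdhaf4, which guards the flavoprotein Sdha before complex II is put together (-1.13, adjusted p = 0.0328), and its call was lost with any library left out. The calls numbered 2, 2 and 6 without P38, 6 months and 12 months, and 27 without SG-like cells in the comparison. The members' median in this fit, which scales by TMM, was 0.20 (0.039 without 6 months and 0.05 with cells of 5000 or more genes kept), while the summed CPM, scaled to the total only, gave a difference near 0 (mean 0.00011 ± 0.10 SD).

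In the interfollicular epidermis few members moved, and Ndufa4l2 set both of its layers apart. IFE basal-like cells raised 3 members and lowered 3 (all genes: 8.54% raised, 2.98% lowered; member median -0.032, all genes 0.046), and IFE suprabasal-like cells raised 4 and lowered 3 (all genes: 13.7% raised, 8.64% lowered; member median 0.012, all genes -0.0016). Ndufa4l2 (chromosome 10:127509274-127517154, GRCm38) had 1058, 1421 and 742 CPM in basal-like cells (log2 difference 3.65 ± 0.38 SE, adjusted p = 5.01e-08) and 1196, 1056 and 640.5 CPM in suprabasal-like cells (log2 difference 3.53 ± 0.38 SE, adjusted p = 3.98e-08). Both calls held with any library left out. Outside the IFE classes and Proliferating-like cells, the highest value among the classes compared was 108 CPM, in UpHF-like cells at 6 months. Its relative Ndufa4 (chromosome 6:11900372-11907450) was low in basal-like cells, at 156, 79.2 and 125 CPM against 251, 343 and 310.1 (log2 difference -0.88 ± 0.24 SE, adjusted p = 0.0154; adjusted p = 0.158 without the 6 months library and 0.133 without 12 months), but not in suprabasal-like cells (0.49, adjusted p = 0.116).

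Sdhb fell in both layers, by 0.80 in basal-like and 0.96 in suprabasal-like cells (adjusted p = 0.0051 and 5.10e-04), from 165, 131 and 151 CPM in the mean of the other classes to 62.6, 48.5 and 75.3 CPM in suprabasal-like cells. The basal-like call was lost without P38 (adjusted p = 0.0728). Uqcrc1, a core protein of complex III, rose in basal-like cells (219, 236 and 290.3 CPM against 161, 157 and 188; log2 difference 0.80 ± 0.14 SE, adjusted p = 1.74e-04) with any library left out. Cox7a2l (0.50) and Ndufc2 of complex I (-0.51) were called there only with all 3 libraries. In suprabasal-like cells Ndufv3 of the complex I flavoprotein part (0.78, adjusted p = 3.45e-04), Sdhaf1, which assists iron-sulfur loading of Sdhb (0.74, adjusted p = 0.0274), and Atp5d (0.37, adjusted p = 0.0339) rose, while Cox6b2 (-3.26, from 8 UMIs in all) and Ndufa11 (-0.53) fell, as did mt-Nd6 (-0.66) and mt-Cytb (-0.48). Of these, Cox6b2 kept its call with any library left out, Ndufv3 in 2 of 3 fits, Sdhaf1, Ndufa11, mt-Nd6 and mt-Cytb in 1 and Atp5d in none. Calls numbered 3, 3 and 3 in basal-like and 3, 6 and 4 in suprabasal-like cells without P38, 6 months and 12 months.

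Complex II departed from the other complexes in its summed level. Its 4 subunits (Sdha, Sdhb, Sdhc, Sdhd) together took 191, 150.5 and 211 CPM in IFE suprabasal-like cells and 205, 224 and 236 CPM in IFE basal-like cells at P38, 6 months and 12 months, against 289.8, 351 and 342 CPM in HF-SC-like and 315, 287 and 361 CPM in Niche-like cells. The IFE classes were therefore below the bulge classes in the complex II sum, much of which came from Sdhb in the bulge classes. For complexes I, III, IV and V, by contrast, HF-SC-like cells lay under the IFE basal-like level in the P38 and 12-month libraries. At 6 months this held for complex I alone (5055 against 5574 CPM). HF-SC-like cells were then above IFE basal-like cells for complexes III, IV and V. That complex I gap was smaller than the gap in Ndufa4l2 alone (83.3 against 1421 CPM), so without this gene HF-SC-like cells were above there too. Taking the class difference of complex II minus that of the other nuclear complexes, the value was -0.86, -0.65 and -0.54 in IFE suprabasal-like and -0.65, -0.17 and -0.42 in IFE basal-like cells. It was 0.60, 0.39 and 0.54 in Niche-like and 0.42, 0.56 and 0.40 in HF-SC-like cells. Each of these 4 classes kept 1 sign in 3 of 3 libraries (n = 3, exact sign-flip permutation p = 0.25, the smallest possible; adjusted p = 0.333 over 8 classes). Ndufa4l2 gave 19, 25.5 and 12.2% of the complex I UMIs in IFE basal-like and 19, 19.6 and 10.5% in IFE suprabasal-like cells, in order of age. With it left out the values were -0.59, -0.064 and -0.38 in IFE basal-like and -0.80, -0.57 and -0.51 in IFE suprabasal-like cells, still below 0 in 3 of 3 libraries. By gene, Sdhb was called in 3 classes, raised in UpHF-like cells and lowered in both IFE classes. Sdhb was the 1 subunit not called in SG-like cells (0.28, adjusted p = 0.309), where the membrane anchors Sdhc and Sdhd and the flavoprotein Sdha rose by 0.89, 1.28 and 1.16. Sdhc fell in Niche-like cells (-0.85, adjusted p = 0.0141) where Sdhb had a difference of 0.44 (adjusted p = 0.19). In edgeR, 3 of the 4 subunits were negative in Niche-like and in HF-SC-like cells. The complex II median was -0.58 in Niche-like cells, where complexes I, III, IV and V had -0.67 to -0.56. In HF-SC-like cells it was -0.13, against -0.44 to -0.34. Sdhb gave 835 of the 1602 complex II UMIs in HF-SC-like cells at P38. Niche-like cells at P38 had 329 UMIs of Sdhb, beside 70, 49 and 28 of Sdha, Sdhc and Sdhd. At 6 months Niche-like cells had 41 of Sdhb, beside 5, 7 and 9, and at 12 months 27, beside 21, 12 and 12. IFE basal-like cells at P38 had 438 of Sdhb, beside 255, 368 and 279. The sums were not recomputed without Sdhb, so a departure of the complex as a whole was not tested.

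**Figure D3:**
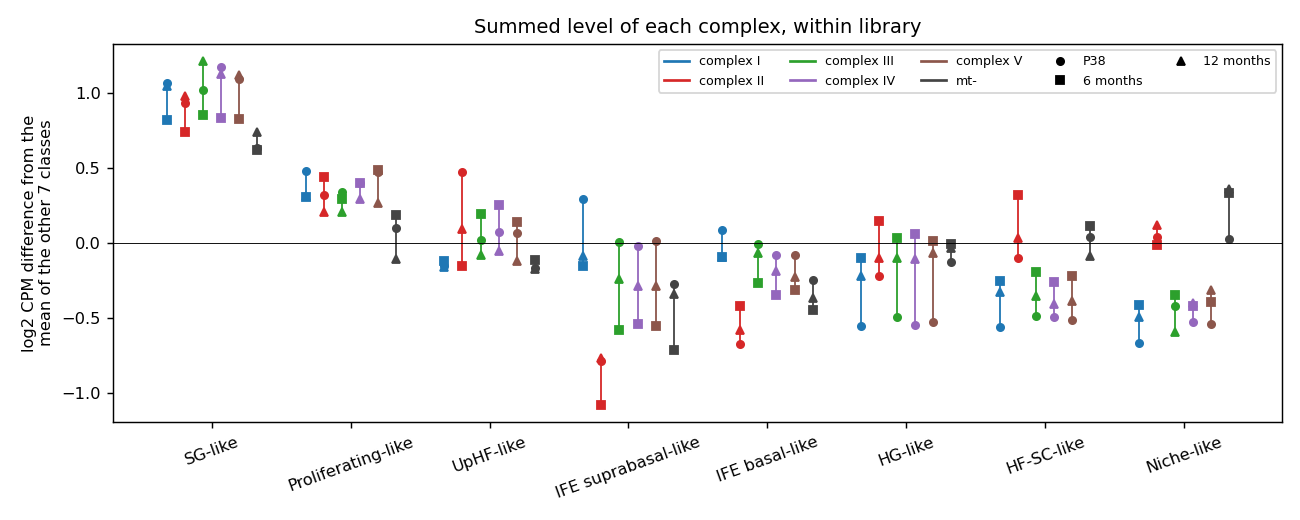
Difference in summed log2 CPM of each complex between a class and the mean of the other 7 classes, 1 point per library. Complexes I, III, IV and V keep close to each other within a class. The complex II sum lies below them in both IFE classes and above them in Niche-like and HF-SC-like cells. By gene, 3 of the 4 complex II subunits had negative differences in Niche-like and in HF-SC-like cells.

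Several complex IV subunits come as isoforms known for tissue-specific use. In the 8 classes the ubiquitous forms were present throughout and the others were almost absent. Cox4i1 ranged from 538 to 1949 CPM, while Cox4i2 (chromosome 2:152753916-152765039), known from lung and from low-oxygen responses, had 5 UMIs over all 24 class sums and never more than 3 in one. Cox6a1 ranged from 131 to 557 CPM, and its muscle form Cox6a2 had 0 UMIs in every class sum and 4 in all kept cells. Cox8a ranged from 438 to 1821 CPM against 2 UMIs of Cox8b and 3 of Cox8c, and Cox7a2 from 266 to 653 CPM against 33 UMIs of the muscle form Cox7a1. Cox7b2 had 0 UMIs. At a depth of 199386 to 8543787 UMIs per class sum, a count of 0 allows up to 0.351 to 15.1 CPM (3 counts; counting error only).

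Cox6b2 was the exception among the rare isoforms, with 29.2, 17 and 37.1 CPM in Proliferating-like, 7.42, 13.2 and 34.2 CPM in HG-like and 3.98, 15 and 29.5 CPM in HF-SC-like cells, in order of age, against 1.04, 1.46 and 0.186 CPM in IFE suprabasal-like cells. The common Cox6b1 was 291 to 820.0 CPM. Of the 3 genes that encode the same c-ring protein of ATP synthase, Atp5g1 and Atp5g3 were called in SG-like cells (1.17 and 1.23), and Atp5g2 had a difference of 0.32 (adjusted p = 0.0903), with 659, 588 and 670.3 CPM there against 647, 659 and 731 CPM in Proliferating-like cells. Cox4i2 and Cox6b2 were higher in some dermal classes, present only at 6 and 12 months, than in the 8 classes. Ndufa4l2 had 874 and 573 CPM in Fibroblast-like cells, Cox6b2 121 CPM in cells with dermal papilla (DP) markers at 12 months, and Cox4i2 381 CPM in cells with mural and arrector pili muscle markers at 12 months, but 2.28 CPM at 6 months. The 6-month cells of that last class had a lower score for their own markers (2.68, against 9.89 at 12 months) and a migratory Niche score of 1.25.

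**Figure D4:**
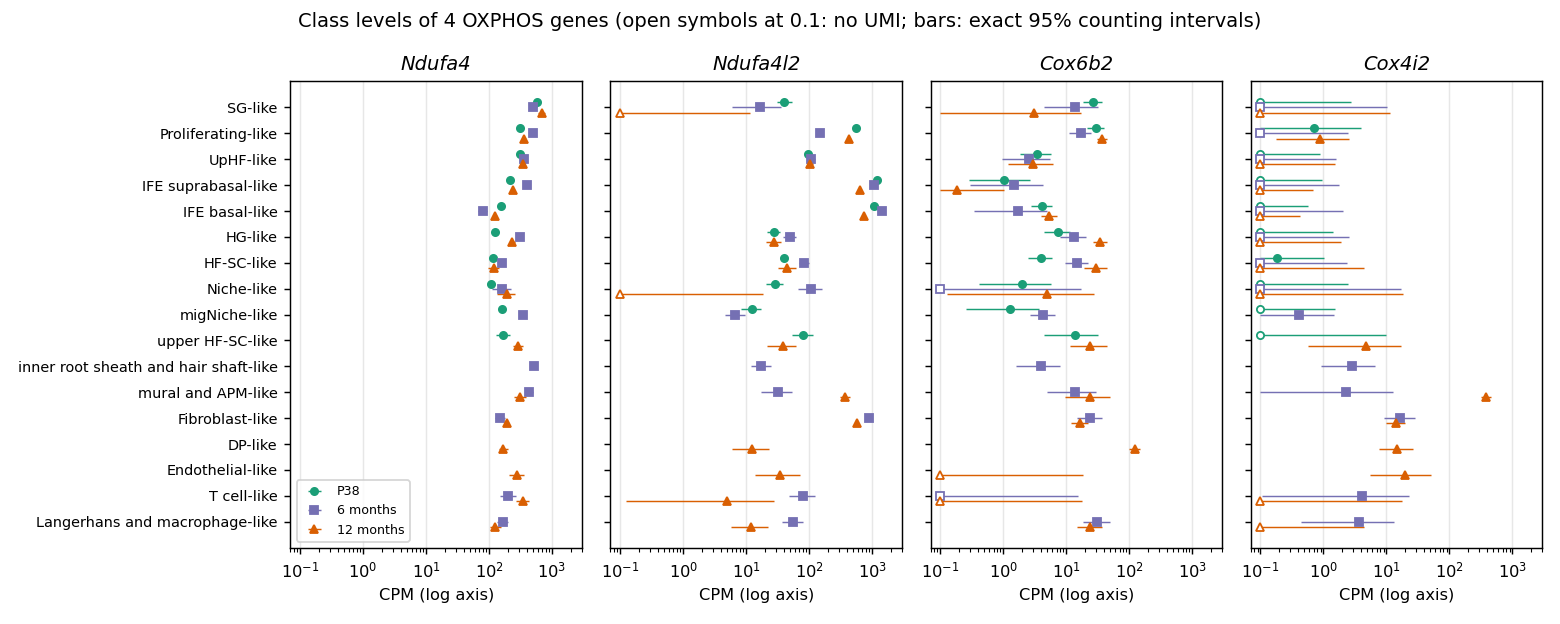
CPM (log axis) of Ndufa4, Ndufa4l2, Cox6b2 and Cox4i2 in 17 classes, 1 symbol per library with exact 95% counting intervals and open symbols at 0.1 where no UMI was counted. Ndufa4l2 is highest in both IFE classes and Fibroblast-like cells, and Cox4i2 stands out only in mural and APM-like cells at 12 months.

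Other mitochondrial gene lists were read in the same fit, each described by its counts beside those of all genes given above. In SG-like cells 5 of 5 electron carrier genes rose, among them Cyc1 (cytochrome c1) by 1.72 (adjusted p = 2.41e-09) and Cycs (cytochrome c) by 0.94 (adjusted p = 1.83e-04). In the citric acid cycle 14 of 17 rose, with Cs (citrate synthase) at 1.18 (adjusted p = 1.54e-05) and Dlat of pyruvate dehydrogenase at 2.07 (adjusted p = 2.67e-10), and 59 of 78 mitochondrial ribosome genes rose (median 0.78), as did 15 of 31 further assembly genes. Cytosolic ribosome genes did not move in the same way (2 raised and 3 lowered of 88, median -0.03), nor did glycolysis (3 raised, 3 lowered of 19). Of 19 genes for mitochondrial transcription and its regulators, the coactivator Ppargc1b (1.22, adjusted p = 0.0186), the nuclear receptor Esrra (0.71, adjusted p = 0.0463) and Mrpl12 rose, while Yy1 (-0.59, adjusted p = 0.00696) and Gabpb1 (-1.24, adjusted p = 0.0156), the partner of GABPA, fell.

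In Niche-like cells 12 of 78 mitochondrial ribosome genes, 4 of 17 citric acid cycle genes, 3 of 5 electron carrier genes and also 6 of 19 glycolysis genes (Gapdh, Pgk1 and Ldhb among them) fell, and none rose. HF-SC-like cells lowered 16 of 78 mitochondrial ribosome genes and 4 of 5 electron carrier genes, with Cyc1 at -0.92 (adjusted p = 0.00147), and Cs of the citric acid cycle at -0.96 (adjusted p = 0.0021). In glycolysis they raised Hk2 (1.40, adjusted p = 2.18e-04) and Pfkm and lowered Pgk1, Eno1 and Aldoa. IFE basal-like cells raised 13 of 19 glycolysis genes and lowered 1 (Ldhb), for example Slc16a3, a lactate exporter, by 3.91 (adjusted p = 2.00e-09) and Slc2a1, a glucose importer, by 0.99 (adjusted p = 0.00376), while no citric acid cycle gene was called (0 of 17). They also raised 54 of 88 genes with Rpl or Rps symbols, a list that by its letters includes the Rps6k kinases. Proliferating-like cells raised 12 of 78 mitochondrial ribosome genes and 3 of 17 citric acid cycle genes.

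Classes present in fewer libraries were not tested. Nuclear members took 24834 CPM in inner root sheath and hair shaft-like cells at 6 months, close to Proliferating-like cells, and 24159 and 22894 CPM in mural and APM-like cells at 6 and 12 months. They took 13454 and 14903 CPM in Fibroblast-like, 14548 and 15348 CPM in T cell-like and 16564 and 11818 CPM in Langerhans and macrophage-like cells. The lowest level of any class was thus that of Langerhans and macrophage-like cells at 12 months. Cells with migratory Niche (migNiche) markers, a population linked to the Niche in its name, held 16184 and 22231 CPM at P38 and 6 months, with 31.3 and 42.8 nuclear UMIs per 100 mt- UMIs, above the 25.8 and 27.3 of Niche-like cells.

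Between ages, most members had a higher level at 12 months than at P38 in each class, with the largest medians in HG-like, Niche-like and HF-SC-like cells. The values compare single libraries, and members with at least 50 UMIs in both libraries were used. In HG-like cells 73 of 79 nuclear members had a higher CPM at 12 months than at P38 (median log2 ratio 0.56, all genes 0.027). Of these 38 passed 1.5-fold upward and 1 downward, where 19.5% and 21.0% of all genes did. The next highest marker score of HG-like cells was that of HF-SC at P38 (0.54) and upper follicle stem cells at 12 months (0.41). Whether the gate held the same cells in both libraries was not tested. In HF-SC-like cells 63 of 75 were higher (median 0.38, all genes 0.15), with 21 past 1.5-fold upward and 1 downward (all genes: 21.2% and 16.4%), a share of 28% upward. In IFE basal-like cells 63 of 85 were higher, but only 6 passed 1.5-fold upward and 1 downward, fewer than the 13.7% and 19.4% of all genes (median 0.20, all genes -0.012). In SG-like cells 60 of 72 were higher (median 0.26, all genes 0.11). In Niche-like cells only 24 nuclear members had enough UMIs, so their median covers a smaller set, and 22 were higher (median 0.46, all genes 0.15).

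Genes for ribosomes were higher at 12 months as well, in HG-like and HF-SC-like cells and in most other classes. The median of the mitochondrial ribosome was 0.57 in HG-like and 0.69 in HF-SC-like cells, and that of the cytosolic ribosome 0.78 and 0.50. Glycolysis genes were lower in HG-like and HF-SC-like cells, with medians of -0.20 and -0.42. They were lower still in UpHF-like (-0.45), SG-like (-0.55), Proliferating-like (-0.66), IFE basal-like (-0.74) and IFE suprabasal-like cells (-0.86). Only Niche-like cells had a positive median (0.30, from 3 genes). In UpHF-like cells the mitochondrial ribosome had a median of 0.42 and the cytosolic ribosome 0.58. The cytosolic ribosome had 0.17 to 0.26 in the IFE classes, Proliferating-like and Niche-like cells, and -0.11 in SG-like cells. Set against the same P38 library, the 6-month members had medians of 0.55 in HG-like, 0.40 in HF-SC-like, -0.13 in IFE basal-like and -0.35 in IFE suprabasal-like cells. The mt- genes were lower at 6 months than at P38, with medians of -0.28, -0.30, -0.51 and -0.68 in those classes. Both comparisons share the P38 library.

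By gene, Ndufb7 went from 29.9 CPM at P38 to 74.3 CPM at 12 months in HF-SC-like cells, a log2 ratio of 1.31 (counting interval 0.87 to 1.74). Ndufs7, which carries an iron-sulfur cluster of complex I, had 58.3, 105 and 136 CPM at P38, 6 months and 12 months, and the assembly factor Ndufaf8 had a ratio of 1.08 (counting interval 0.60 to 1.55) from P38 to 12 months. Uqcrc2, a core protein of complex III, had 0.79 (counting interval 0.54 to 1.05) and Ndufa4l2 1.07 (counting interval 0.74 to 1.39) from P38 to 6 months. From 6 to 12 months the members with the smallest ratios in these cells were Atp5mpl, a small ATP synthase subunit (-0.65, counting interval -0.92 to -0.38), Ndufb6 (-0.61, counting interval -1.05 to -0.19) and Uqcrfs1 (-0.61, counting interval -1.05 to -0.18), and those with the largest were mt-Nd5 (0.73, counting interval 0.55 to 0.91), Ndufb7 (0.61, counting interval 0.10 to 1.11) and mt-Nd1 (0.55, counting interval 0.48 to 0.63). The intervals cover counting error only.

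In IFE basal-like cells the largest ratios from P38 to 12 months were those of Sdhaf4 (0.94, counting interval 0.56 to 1.33), Sdhaf1 (0.81, counting interval 0.35 to 1.30) and Ndufb4 of complex I (0.66, counting interval 0.55 to 0.78). Ndufa4l2, at 1058, 1421 and 742 CPM, was among the lowest, with -0.51 (counting interval -0.56 to -0.46) from P38 and -0.94 (counting interval -1.003 to -0.87) from 6 months. From P38 to 6 months Cox7a2l (0.69, counting interval 0.58 to 0.80), Ndufaf8 (0.46, counting interval 0.036 to 0.86) and Ndufa10 (0.45, counting interval 0.22 to 0.67) had the largest ratios, and Atp5md of ATP synthase was among the smallest (-0.999, counting interval -1.19 to -0.81). From 6 to 12 months mt-Atp8 (1.05, counting interval 0.68 to 1.43), Ndufb7 (0.98, counting interval 0.61 to 1.36) and mt-Nd4l (0.94, counting interval 0.78 to 1.11) had the largest ratios, and Uqcrfs1 (-0.55, counting interval -0.74 to -0.36) and Atp5a1 (-0.20, counting interval -0.31 to -0.081), the alpha subunit of ATP synthase, the smallest beside Ndufa4l2.

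Cox7b, a complex IV subunit encoded on the X chromosome (chromosome X:106015700-106022450), had the smallest ratio to P38 of any member in both of these classes. It was at 723 to 2576 CPM over the 8 classes at P38, 178 to 673 CPM at 6 months and 276 to 973 CPM at 12 months. In each library SG-like cells gave the highest value, and without them the ranges ended at 1184, 327 and 323 CPM. The log2 ratio to P38 lay between -2.60 and -1.57 at 6 months and between -1.87 and -1.18 at 12 months, in every class. The files' headers give a different Cell Ranger version for P38 (6.1.2) than for the other libraries (6.0.0), and the part of this in the result was not tested. The mt-Atp8 gene was also highest at P38, at 104 to 197 CPM, against 27.7 to 84.3 CPM at 6 months and 70.1 to 100.3 CPM at 12 months, without overlap with P38.

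**Figure D5:**
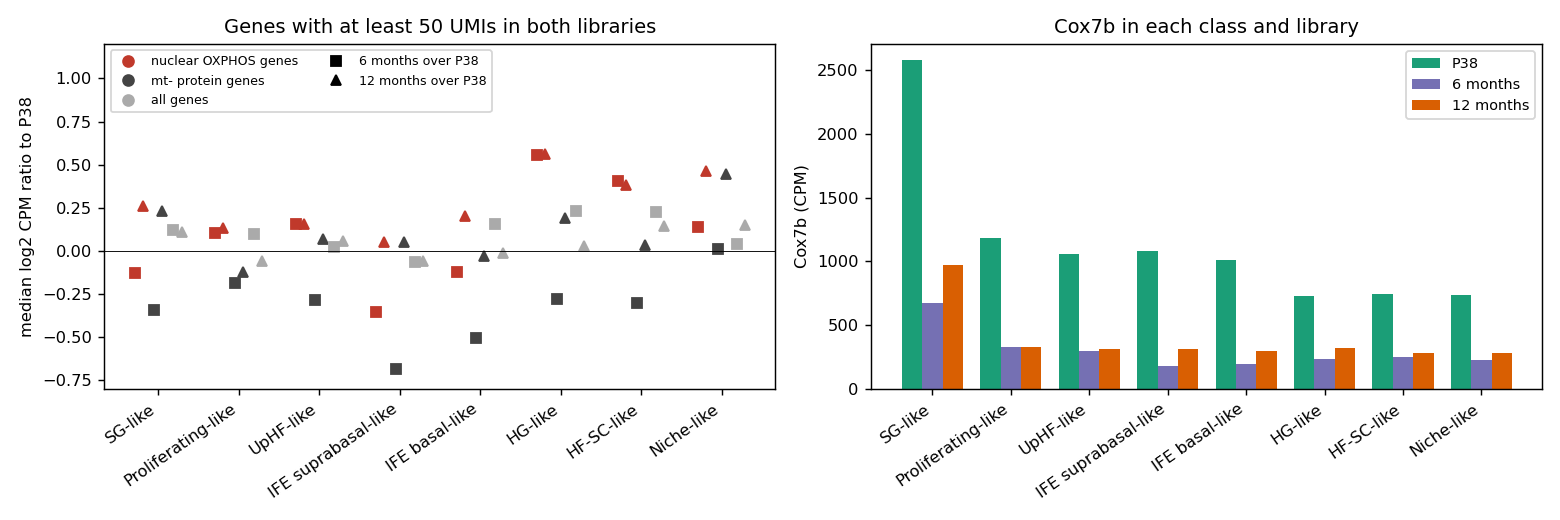
Left, median log2 CPM ratio of the 6-month and 12-month libraries to P38 by class for nuclear members, mt- genes and all genes with at least 50 UMIs in both libraries. Right, Cox7b (CPM) in each class and library, where every P38 bar is the tallest of its class.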

How the data were processed

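Single-cell libraries (10x Genomics 3′ chemistry) of mouse back skin at P38, 6 months and 12 months were analysed, 1 library per age. The authors ran Cell Ranger on reads aligned to mm10 and deposited filtered matrices of raw UMI counts per gene and barcode. The submitters' notes name Cell Ranger 6.1.2, and the file headers name 6.1.2 for P38 and 6.0.0 for 6 and 12 months. The labels describe dissociated total back skin, and the methods of the study a sort for reporter-positive cells. The study's filters (more than 200 and fewer than 5000 genes, mt- under 15%) left the stated cell number at P38 and more than the stated number at 6 and 12 months. No doublet caller was run; an alternative set aside cells with markers of a second class. Kept cells held 34646663, 24698719 and 38910431 UMIs, and whole libraries 40509290, 48722038 and 48887123.

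Counts were scaled to 10000 per cell, logged and standardized per marker, and each cell took the class of its highest mean score. UMIs were summed per library and class (at least 20 cells) and fitted with edgeR 4.0.16 (R 4.3.3; TMM, filterByExpr, glmQLFit and glmQLFTest, class and library as additive terms), with Benjamini-Hochberg adjustment over all genes. All classes shared 1 estimate of the spread. Single values were tested over the 3 libraries with an exact two-sided sign-flip permutation test (Python 3.11.15, scipy 1.17.1). Intervals are exact 95% Poisson or binomial intervals and cover counting error only. The scripts were tested on simulated counts. Named genes were the mt- genes, the isoform groups, the 4 most raised and 4 most lowered called members of each class, and for ages the 3 members with the largest and the 3 with the smallest ratio in IFE basal-like and HF-SC-like cells. Members and lists were chosen with earlier results of these data known. Cell Ranger counts uniquely mapped reads, so genes with close copies may lose reads. Positions and promoters are from RefSeq (GRCm38.p6). Cells of a class in 1 library share an animal or pool, so p-values rest on 3 libraries that also differ in age and sex.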

Additional observations from a re-analysis of the deposited data

Results flagged for a closer look

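The level of the nuclear members against the mean of the other classes lay on different sides of 0 in different libraries in 2 classes. In IFE suprabasal-like cells the log2 difference was 0.07 at P38, -0.43 at 6 months and -0.23 at 12 months, and in UpHF-like cells it was 0.01, 0.09 and -0.11. The mt- genes did the same in HF-SC-like cells (0.04, 0.12 and -0.09) and in Proliferating-like cells (0.10, 0.19 and -0.10). Each library is 1 age, so these differences between ages were not tested.

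Signal above 3 UMIs was also seen in classes outside the 8 compared for 2 isoforms that the compared classes held at 3 UMIs or fewer. Cox4i2 had 14.99 CPM in DP-like, 19.87 CPM in Endothelial-like and 380.6 CPM in mural and APM-like cells at 12 months, 16.72 CPM at 6 months and 14.11 CPM at 12 months in Fibroblast-like cells, and 2.795 CPM in inner root sheath and hair shaft-like cells at 6 months. Cox8b, a form known from muscle and brown fat, had 5.972 CPM at 6 months and 12.93 CPM at 12 months in Fibroblast-like cells.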

How the results depend on the processing

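The members called in SG-like cells numbered 61 to 85 raised and 1 lowered in every alternative that could be fitted for that class, and the median stayed positive. SG-like cells could not be fitted with at least 1000 genes per cell at 20 cells a class or after thinning each cell to 1000 UMIs, Niche-like cells with clusters or the margin gate, nor HG-like cells with clusters. Of 1364 values of the 74 named calls under 20 settings, 1084 kept direction and call, 278 lost the call and 2 changed sign, both in Niche-like cells with cells of 5000 or more genes kept (Ndufa4 0.33, Cox7a2 0.049). Counts of calls in the other classes moved by over 1.5 times as follows. With DESeq2 they were 47 (HF-SC), 27 (HG), 11 (IFE basal), 19 (IFE suprabasal) and 24 (Proliferating), and with RLE size factors 11 (IFE suprabasal). Without the library term they were 3 (HG), 4 (IFE suprabasal), 33 (Niche), 5 (Proliferating) and 6 (UpHF), and without the low-count filter 31 (Niche) and 6 (UpHF). With at least 1000 genes per cell, where SG-like cells drop out, they were 13 (HF-SC), 3 (HG), 3 (IFE basal), 11 (IFE suprabasal), 20 (Niche), 37 (Proliferating) and 28 (UpHF), and with SG-like cells left out 3 (HG), 23 (Niche), 35 (Proliferating) and 27 (UpHF). Thinned cells gave 3 (HF-SC), 1 (HG), 3 (IFE basal), 4 (IFE suprabasal), 4 (Niche), 3 (Proliferating) and 5 (UpHF), with fewer genes tested. Cells of 5000 or more genes gave 11 (HG), 7 (Niche) and 3 (UpHF), no mitochondrial filter 11 (HG), and a stricter gate 32 (HF-SC) and 10 (HG). The margin gate, where Niche-like cells drop out, gave 43 (HF-SC) and 20 (HG). Clusters, where Niche-like and HG-like cells drop out, gave 32 (HF-SC), 3 (IFE suprabasal) and 2 (Proliferating). Where 1 library was left out the ranges were 8 to 20 (HF-SC), 1 to 4 (HG), 3 to 3 (IFE basal), 3 to 6 (IFE suprabasal), 4 to 20 (Niche), 3 to 4 (Proliferating) and 2 to 6 (UpHF). Apart from the settings whose construction is named, the cause was not tested.

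Summed levels near 0 changed sign: UpHF-like cells to -0.00585 (no mitochondrial filter), -0.11 (5000 or more genes kept), -0.036 (stricter gate), -0.072 (margin gate), -0.00576 (no shared barcodes), -0.00354 (no cycling cells), -5.576e-04 (1000 genes, 10 cells a class), -0.011 (mt- genes out of the CPM total) and -0.047 to 0.054 with 1 library left out (-0.00644 without P38). Thinning gave 0.036 for IFE basal-like and 0.0037 for IFE suprabasal-like cells, and 0.090 for complex I assembly in IFE basal-like cells. Complex III in IFE basal-like cells became 0.038 (1000 genes), 0.11 (thinned) and 0.038 (SG-like cells left out), and the mt- genes in HG-like cells 0.045, 0.077 and 0.044 under the same settings. The raised share of all calls moved by over 10 percentage points with DESeq2 from 76.3% to 66.1% (HF-SC), 74.1% to 56.8% (IFE basal), 61.3% to 48% (IFE suprabasal) and 76.2% to 56.8% (UpHF), and with RLE from 64.6% to 75% (Niche). No paired analysis was possible because each age has 1 library, numbered replicate 1, which concerns the ages only, since classes were compared within libraries (a library term). With Ndufa4l2 left out of the sums, added after seeing the data, no class mean of the level, the balance or the complex II difference changed sign.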
